A study of Mus musculus with 10 samples.

Results

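The genes described here are 10 genes of tryptophan breakdown and of the aryl hydrocarbon receptor (AHR) that senses some of its products. They were chosen by name from the 22607 genes matched in the deposited tables, and all 10 were found: Ido1, Ido2, Afmid, Kmo, Kynu, Haao, Qprt, Ahr, Ahrr and Cyp1b1. They were followed in 10 polyadenylated RNA libraries made from sorted immune cells. All donors were C57BL/6 mice, labelled wild type and 8 weeks old, and no treatment is named. The 5 groups of 2 libraries were MHC class II positive (MHCII+) cells of the colon, MHCII+ cells of the spleen, and colonic cells sorted as CD11c+, CD11b+ or positive for both (CD11b+CD11c+). The sample titles abbreviate the populations, so the tissue of each group was taken from the wording that describes the series as a whole. Whether the 2 libraries of a group stand for different mice is not labelled. The p-values therefore speak of library-to-library spread, which may be technical.

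Most tryptophan that is not built into protein is broken down along the kynurenine pathway. IDO1 and IDO2 open the ring of tryptophan, AFMID removes the formyl group to give kynurenine, KMO hydroxylates kynurenine, KYNU cleaves off the side chain, HAAO opens the remaining ring, and QPRT turns the resulting quinolinate into a precursor of NAD. In dendritic cells IDO1 is known for local depletion of tryptophan and for restraint of T cells. Kynurenine and indoles made by gut bacteria are ligands of AHR, a transcription factor that pairs with ARNT, binds DNA elements with the core GCGTG and raises genes such as Cyp1b1, a cytochrome P450, and Ahrr, a repressor that competes with AHR.

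The 250 bases before the annotated start are shown for Ahrr and Cyp1b1, because these members are textbook targets of AHR and their levels can be set beside that of Ahr itself. Both windows are RefSeq sequence on GRCm38.p6 (mm10), minus strand, printed 5′ to 3′, and capitals mark GCGTG or its reverse complement CACGC.
Ahrr, chr13:74292332-74292581: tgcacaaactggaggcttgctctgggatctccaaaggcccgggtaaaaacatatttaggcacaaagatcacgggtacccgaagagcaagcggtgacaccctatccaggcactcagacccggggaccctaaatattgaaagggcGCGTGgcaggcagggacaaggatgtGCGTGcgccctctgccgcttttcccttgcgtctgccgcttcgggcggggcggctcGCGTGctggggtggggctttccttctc
Cyp1b1, chr17:79715062-79715311: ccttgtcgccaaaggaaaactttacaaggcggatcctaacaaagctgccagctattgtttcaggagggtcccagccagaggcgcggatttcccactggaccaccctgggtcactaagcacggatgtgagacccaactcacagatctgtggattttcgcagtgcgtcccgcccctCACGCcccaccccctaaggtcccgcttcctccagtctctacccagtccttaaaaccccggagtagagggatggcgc
The Ahrr window held 3 matches, all GCGTG as read here, and the Cyp1b1 window held 1, on the other strand. Over all 32851 windows of this length in the RefSeq table, 28.2% held at least 1 match on either strand and 2.77% held at least 3. The table had windows for 6 of the members, and besides these 2 genes only Haao held a match, with 1, while Afmid, Kmo and Qprt held none. The windows of Kmo (chr1:175631943-175632192) and Haao (chr17:83846791-83847040) lay inside the gene spans given below, and that of Qprt partly so. For these genes the window precedes a RefSeq start and not the outermost start of the span. A match is a description of letters and not evidence of binding.

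Levels are given first in TPM (transcript abundance scaled to a fixed library total), which is per length and on a common scale in all libraries. The titles number the MHCII+ libraries apart from the integrin-sorted ones. Where groups of both sets are ranked together below, set and sort cannot be told apart, and no test was made between the sets. Ahr was the most abundant member in every colonic library. Ahr itself (ENSMUSG00000019256.17, mm10 chromosome 12, 35497974 to 35535038) was at 116 and 136 TPM in CD11c+ libraries 1 and 2. It was at 90.6 and 83.2 TPM in the CD11b+CD11c+ libraries, 75.9 and 76.5 TPM in the colonic MHCII+ libraries and 74.2 and 73.8 TPM in the CD11b+ libraries. The splenic MHCII+ libraries were lowest, at 23.3 and 16.8 TPM. No neighbouring groups overlapped in this order, although the gap between colonic MHCII+ and CD11b+ libraries was small, and the highest group mean was 6.29 times the lowest.

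The enzymes that act on kynurenine stood in another order, with the spleen at the top. Kmo (ENSMUSG00000039783.15, chromosome 1, 175620381 to 175662116), the hydroxylase, was at 76.7 and 75.8 TPM in the splenic libraries and at 23.8 and 23.5 TPM in CD11c+ cells. It was at 20.1 and 15.1 TPM in CD11b+CD11c+ cells, 11.8 and 11.2 TPM in colonic MHCII+ cells and 5.13 and 5.601 TPM in CD11b+ cells. All 5 groups were apart from their neighbours, over a range of 14.2 times between the highest and the lowest mean. Haao (ENSMUSG00000000673.9, chromosome 17, 83831156 to 83847963), the ring-opening dioxygenase, took the same order of groups: 132 and 102 TPM in the spleen, 37.99 and 36.6 TPM in CD11c+ cells, 25.5 and 15.5 TPM in CD11b+CD11c+ cells, 21.3 and 16.8 TPM in colonic MHCII+ cells and 9.50 and 13.4 TPM in CD11b+ cells. The CD11b+CD11c+ and colonic MHCII+ libraries overlapped, and the other neighbours did not.

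Kynu (ENSMUSG00000026866.16, chromosome 2, 43555329 to 43682715), the side-chain hydrolase, was also highest in the spleen, at 30.6 and 32.4 TPM, but the CD11b+CD11c+ libraries came next at 11.8 and 11.9 TPM. CD11c+ cells were at 6.72 and 8.89 TPM, colonic MHCII+ cells at 5.74 and 7.25 TPM and CD11b+ cells at 4.49 and 6.70 TPM, and these 3 groups overlapped in turn. Qprt (ENSMUSG00000030674.5, chromosome 7, 127107114 to 127122226), the last enzyme of the set, was low in every library. The spleen was apart from the rest at 2.66 and 3.33 TPM, and the 8 colonic libraries lay between 0.0399 and 0.778 TPM, with all 4 colonic groups overlapping in turn.

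The formamidase gene Afmid (ENSMUSG00000017718.15, chromosome 11, 117825924 to 117839908) varied least among the members above 5 TPM. Its highest group was CD11b+CD11c+, at 12.7 and 9.98 TPM, and the lowest was the spleen, at 6.24 and 5.58 TPM, with group means 1.92 times apart. The CD11b+CD11c+ libraries were apart from CD11c+ cells (7.73 and 7.47 TPM), which overlapped colonic MHCII+ cells (6.76 and 7.65 TPM). CD11b+ cells, at 6.57 and 5.52 TPM, overlapped the spleen.

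The ring-opening enzymes at the head of the pathway were scarcely detected. Ido1 (ENSMUSG00000031551.12, chromosome 8, 24584136 to 24597009) was at 1.496 and 1.96 TPM in CD11c+ cells, from 82 and 65 counts, and at 0.192 to 0.632 TPM in the other 8 libraries, from 7 to 34 counts. The CD11c+ libraries were apart from all others, which overlapped in turn. Ido2 (ENSMUSG00000031549.16, chromosome 8, 24531892 to 24576333), its neighbour on the chromosome, did not exceed 0.434 TPM, with 0 to 16 counts per library, and the splenic libraries had 2 and 0 counts. The coding sequences of Ido1-201 and Ido2-201 shared 0 of 1194 stretches of 31 bases.

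The AHR target genes among the members were low as well. Ahrr (ENSMUSG00000021575.16, chromosome 13, 74211118 to 74292331) was highest in CD11b+CD11c+ cells, at 1.47 and 1.82 TPM, and lowest in the spleen, at 0.579 and 0.584 TPM. CD11b+ (0.864 and 1.09 TPM), colonic MHCII+ (0.674 and 0.960 TPM) and CD11c+ (0.860 and 0.768 TPM) libraries overlapped in turn between them. Cyp1b1 (ENSMUSG00000024087.4, chromosome 17, 79701537 to 79715061) had 0 to 7 counts per library and at most 0.171 TPM. CD11c+ cells, the group with the most Ahr, had 2 and 0 counts of Cyp1b1.

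**Figure D1:**
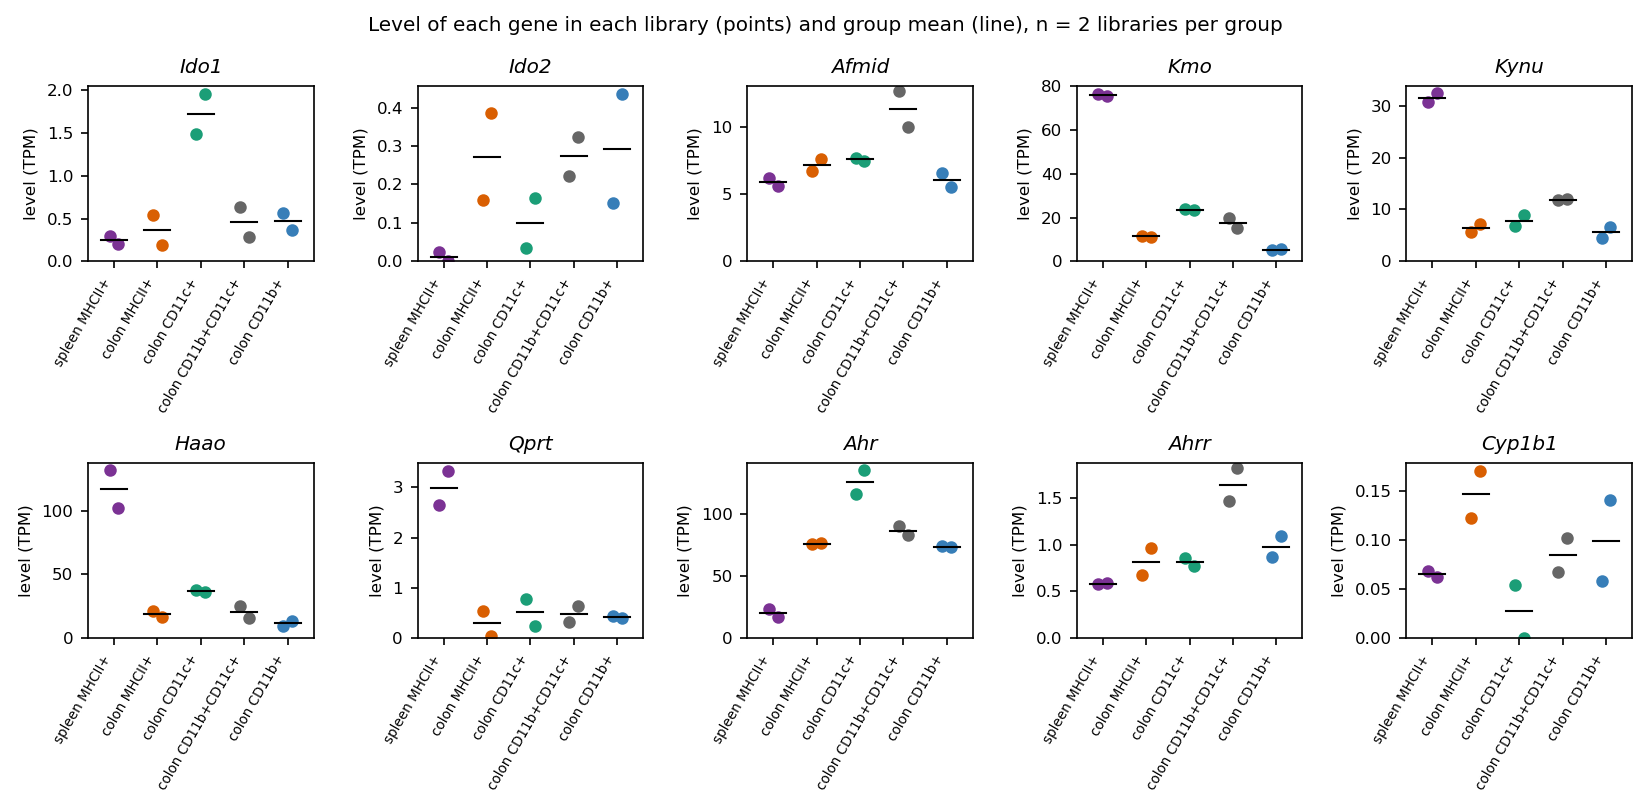
Level of each of the 10 genes in TPM (vertical axes from 0, each with its own scale) in the 5 groups; points are libraries, lines are means of 2 libraries. Kmo, Kynu, Haao and Qprt peak in the spleen, Ahr and Ido1 in colonic CD11c+ cells, and Afmid and Ahrr in CD11b+CD11c+ cells, while Ido1, Ido2, Qprt, Ahrr and Cyp1b1 stay below 4 TPM everywhere.

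Set against each other within a library, the receptor and the enzymes gave opposite proportions in spleen and colon. The summed level of Kmo, Kynu and Haao was 240 and 211 TPM in the splenic libraries, where Ahr was 0.304 and 0.222 times Kmo. In the colonic groups the sum lay between 19.1 and 68.9 TPM and Ahr was 4.52 to 14.4 times Kmo. These are gene totals: short models of Ahr raise the ratios and short models of Haao raise the sums, as given next. Within the colon the order was not opposite: CD11c+ cells had both the most Ahr and the largest enzyme sum (68.5 and 68.9 TPM), and CD11b+ cells had the smallest sum (19.1 and 25.7 TPM). Ahr was least in CD11b+ cells on the sum over models, by a small gap, and in colonic MHCII+ cells on the full-length model alone, as given next.

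**Figure D2:**
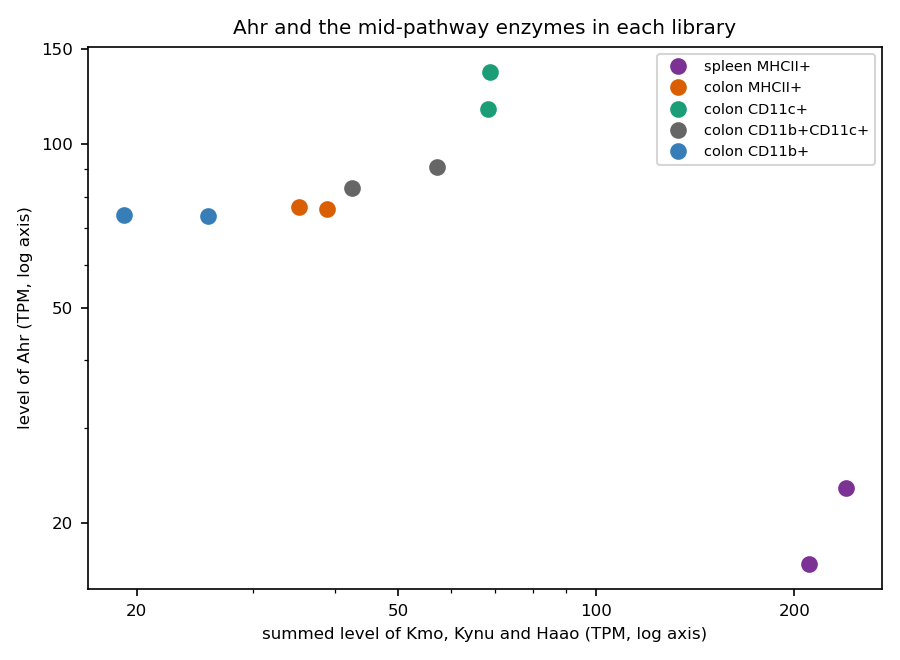
Level of Ahr (vertical, TPM, log axis) against the summed level of Kmo, Kynu and Haao (horizontal, TPM, log axis), 1 point per library, coloured by group. The splenic libraries lie alone at 211 to 240 TPM of enzymes and 16.8 to 23.3 TPM of Ahr, and the 8 colonic libraries run from CD11b+ at the left to CD11c+ at the top.

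The tables hold coding models, and short models weigh on TPM. Ahr-201, a model of 345 coding bases annotated as a target of nonsense-mediated decay, shares its first 250 bases with Ahr-202, the full-length model of 2418 bases. It took 3.32 to 8.00% of the counts of Ahr but 34.7 to 54.4% of its TPM. Counting Ahr-202 alone, the levels were 65.2 and 69.5 TPM in CD11c+ cells, 57.1 and 54.3 in CD11b+CD11c+ cells, 46.2 and 46.2 in CD11b+ cells, 40.3 and 34.9 in colonic MHCII+ cells and 13.1 and 10.4 in the spleen. CD11b+ and colonic MHCII+ cells thus changed places, and the top and bottom of the order did not change.

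For Haao the full-length model Haao-201 of 861 bases carried 83.96 to 93.5% of the counts and 34.1 to 57.7% of the TPM, with most of the remaining TPM on a model of 195 bases in 9 of 10 libraries. Haao-201 alone was at 45.3 and 47.1 TPM in the spleen, 15.6 and 15.4 in CD11c+ cells, 10.3 and 7.72 in CD11b+CD11c+ cells, 8.64 and 9.71 in colonic MHCII+ cells and 3.48 and 4.56 in CD11b+ cells. On full-length models Kmo exceeded Haao in every library, with Kmo-201 at 69.7 and 69.8 TPM in the spleen. On the gene sums Haao exceeded Kmo in every library.

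The models of Kynu and Afmid did not keep fixed proportions. Kynu-202, a model of 975 coding bases that shares its first 906 with the full-length Kynu-201, was at 5.13 and 4.14 TPM in CD11b+CD11c+ cells and at 0.624 to 2.81 TPM in the other 8 libraries. It made up 43.6 and 34.7% of Kynu TPM in CD11b+CD11c+ cells against 9.18 and 6.83% in the spleen. The share in colonic MHCII+ cells, 35.1 and 33.6%, was close to that in CD11b+CD11c+ cells. Kynu-201 itself was at 6.63 and 6.91 TPM in CD11b+CD11c+ cells, inside the span of the CD11c+ libraries (4.75 and 7.58 TPM). Afmid-205, whose annotated coding part has no ATG at its start, was at 4.14 and 4.15 TPM in CD11b+CD11c+ cells and at 0.914 to 2.50 TPM elsewhere. These model levels are estimates from reads that fit several models and were not tested.

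**Figure D3:**
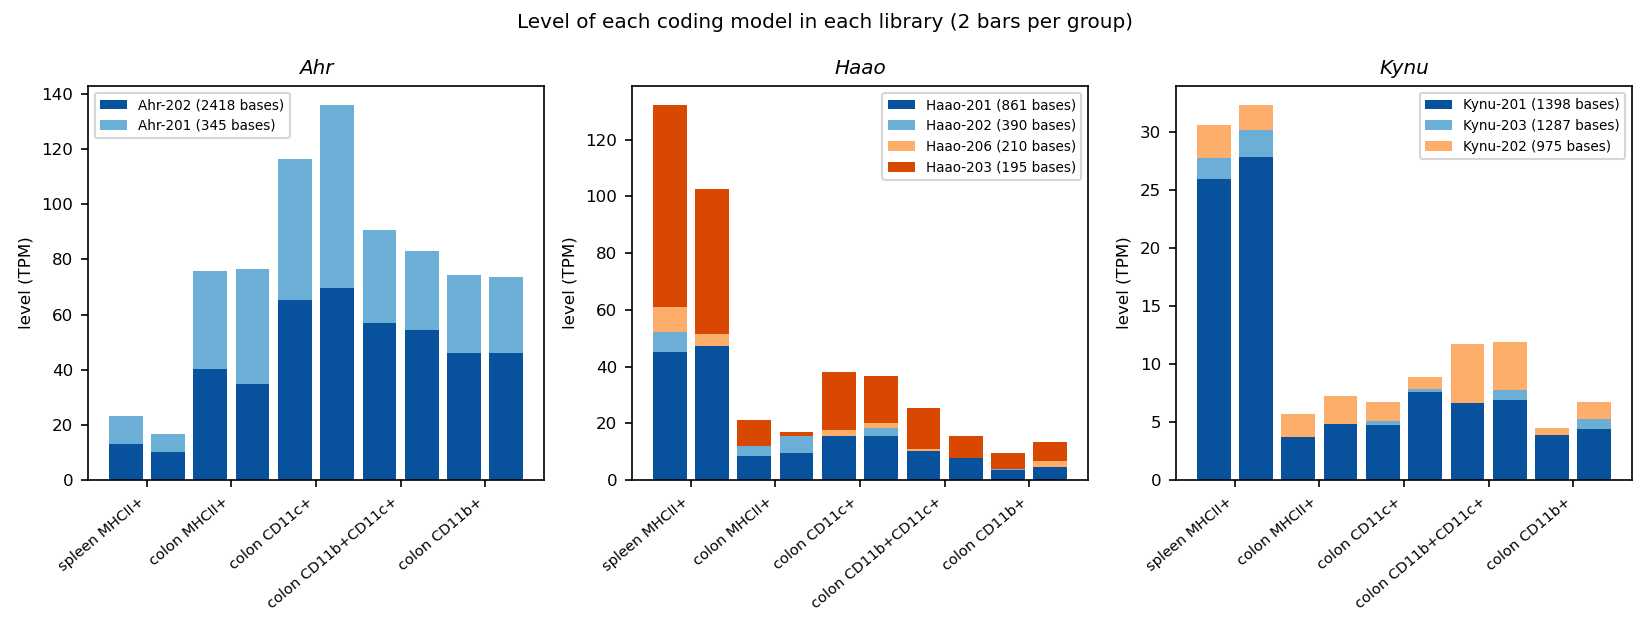
Stacked bars give the level (TPM, from 0) of each coding model of Ahr, Haao and Kynu in each library, 2 bars per group, with model lengths in coding bases. Short models hold much of the TPM of Ahr and Haao, and the Kynu-202 part is largest in the CD11b+CD11c+ bars.

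Library depth was 12806139 to 41769042 estimated counts. Marker lists of 12 cell types were summed to describe the RNA in the sorts. Summed cDC1 markers (type 1 conventional dendritic cells, 11 genes) were 1323 and 1386 TPM in CD11c+ libraries and 171 and 176 TPM in CD11b+ libraries, and summed macrophage markers (12 genes) were 4332 and 5819 TPM in CD11b+CD11c+ and 4005 and 4594 TPM in CD11b+ libraries. Conventional dendritic cell markers (6 genes) summed to 619 and 583 TPM in the spleen, 310 and 355 in CD11c+ and 234 and 202 in CD11b+CD11c+ libraries. Colonic MHCII+ libraries had 154 and 177 TPM and CD11b+ libraries 110 and 113 TPM. Group means of this list fell in the order of Kmo and Haao, and its part in their levels was not tested. The CD11c+ libraries differed from each other, with 145 and 701 TPM of macrophage and 707 and 229.9 TPM of T cell markers (8 genes). Plasma cell markers (6 genes) were between 7234 and 27517 TPM in the colonic libraries. In bulk samples, fewer cells of a type and less RNA per cell cannot be told apart. Whether marker RNA came from sorted cells of that type was not tested.

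**Figure D4:**
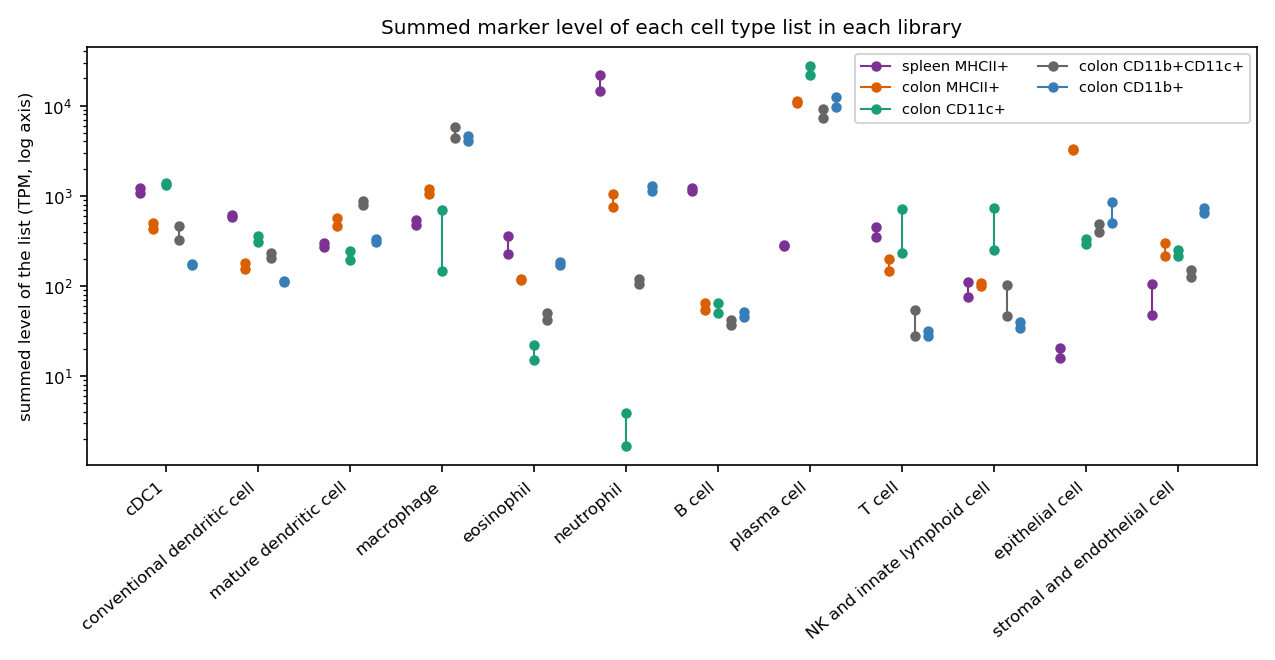
Summed level of each cell type marker list (TPM, log axis) in each library, coloured by group, with the 2 libraries of a group joined. cDC1 markers are highest in CD11c+ and splenic cells, macrophage markers in CD11b+ and CD11b+CD11c+ cells, and epithelial markers in colonic MHCII+ cells.

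The first comparison set colonic against splenic MHCII+ cells. In CPM (read counts scaled to TMM-adjusted library sizes, used in all comparisons), Kmo was at 29.7 and 28.9 in the colon and at 176 and 165 in the spleen. It was 5.81 times lower in the colon (log2 fold change -2.54, SE 0.10, edgeR adjusted p = 6.4e-06). Kynu was at 12.4 and 15.9 CPM against 67.3 and 67.6 CPM, 4.79 times lower (log2 fold change -2.26, SE 0.15, adjusted p = 4.3e-05). Haao was at 13.7 and 16.0 CPM against 66.1 and 61.3 CPM, 4.30 times lower (log2 fold change -2.11, SE 0.13, adjusted p = 3.3e-05). Consecutive steps of the pathway were thus lower in colonic cells by similar factors, with no overlap between the groups. Ahr went the other way: it was at 196 and 174 CPM in the colon against 58.8 and 43.2 CPM in the spleen, 3.63 times higher (log2 fold change 1.86, SE 0.16, adjusted p = 1.4e-04). These 4 calls held in every fit that left out a library and under every other setting tried.

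Qprt was lower in the colon as well (0.766 and 0.0584 CPM against 3.50 and 4.17 CPM, log2 fold change -3.07, SE 0.82, adjusted p = 0.017). Colonic library 2 had a single count of it: the log2 fold change was -2.32 without that library and -5.98 without colonic library 1, and the call ended without splenic library 2 (adjusted p = 0.0523). Ido2 was called higher in the colon (adjusted p = 0.023) from 24 counts against 2, a ratio of 19.3 with an exact binomial 95% interval of 4.78 to 168 that covers counting error only. Without colonic library 2 Ido2 fell under the count filter and was not tested. The call ended without splenic library 1 (adjusted p = 0.0652), without splenic library 2 (adjusted p = 0.159), with no count filter (adjusted p = 0.0658) and with limma on log2(TPM + 0.5) (adjusted p = 0.0674). Ido1 was at 1.13 and 0.409 CPM against 0.516 and 0.363 CPM and gave no call (log2 fold change 0.83, 95% interval -0.97 to 2.64, adjusted p = 0.37).

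Afmid did not pass (10.4 and 12.4 CPM against 8.90 and 7.46 CPM, adjusted p = 0.095, and 0.0391 in a fit over all 10 libraries, which called it higher), nor did Ahrr (2.67 and 3.68 CPM against 2.11 and 1.72 CPM, log2 fold change 0.72, 95% interval -0.30 to 1.73, adjusted p = 0.18). Cyp1b1, with 13 counts against 8, was under the count filter, and its ratio of 2.61 had an interval of 1.00 to 7.26. Of 9 members tested, 2 were higher and 4 lower in the colon, where 60.3% of the 15076 genes tested were called, 31.6% higher and 28.7% lower. A share of 6 in 9 is near that background. Marker lists moved with these values: cDC1 markers summed to 425 and 499 TPM in the colon against 1225 and 1079 TPM in the spleen, B cell markers to 65.3 and 54.5 against 1123 and 1216 TPM, neutrophil markers to 1048 and 743 against 14638 and 21877 TPM, and epithelial markers to 3274 and 3202 against 15.9 and 20.2 TPM. All 6 conventional dendritic cell markers were lower in the colon (154 and 177 against 619 and 583 TPM). All 6 plasma cell markers were higher (10750 and 11125 against 284 and 276 TPM). Of 12 macrophage markers, 8 were higher and 1 lower (1179 and 1059 against 473 and 542 TPM). Of 8 stromal and endothelial markers, 6 were higher and 2 lower. Every gene of these lists had a count in at least 1 library of both groups, and their part in the differences was not tested.

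The genes around the pathway were described from 5 lists. Over all genes tested in this comparison, 31.6% were called higher and 28.7% lower. Of 18 other kynurenine and NAD genes, 15 were tested, 4 were higher and 2 lower in the colon, with a median log2 fold change of 0.34 against 0.02 over all genes. Nampt, the rate-limiting enzyme of NAD salvage, was at 122 ± 0.954 against 92.98 ± 7.26 CPM (SD, n = 2), and the NAD consumer Parp1 at 83.2 ± 1.73 against 221 ± 1.93 CPM. Got2, an aminotransferase that can use kynurenine, was at 80.5 ± 2.60 against 113 ± 10.7 CPM. Genes of tryptophan supply and competing routes gave 9 higher and 1 lower of 12 tested (median 1.92). Slc3a2, the heavy chain of the large amino acid transporter, was at 629 ± 17.5 against 161 ± 50.4 CPM, Wars, the tryptophan tRNA synthetase, at 65.03 ± 5.47 against 40.6 ± 2.12 CPM, and Il4i1, a secreted amino acid oxidase that acts on tryptophan, was the lower gene at 56.2 ± 5.27 against 124 ± 4.64 CPM.

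Among other AHR targets, 5 of 8 were tested and 4 were higher in the colon (median 1.53), where 31.6% of all genes tested were higher. All 10 epithelial markers were higher in the same libraries, and the part of epithelial cells in these values was not tested. Nfe2l2, the regulator of the oxidative stress response, was at 349 ± 29.7 against 121 ± 15.9 CPM, Tiparp, an enzyme that modifies AHR, at 106 ± 13.98 against 48.4 ± 13.9 CPM, and the quinone reductase Nqo1 at 9.44 ± 2.77 against 0.551 ± 0.546 CPM. Cyp1a1 and Cyp1a2, the classical AHR-induced cytochromes, and Aldh3a1 were under the count filter. Of the partners and chaperones of AHR, 9 were tested, 2 were higher and 5 lower (median -0.61). Arnt, the partner of AHR on DNA, was higher at 97.2 ± 2.55 against 68.8 ± 0.727 CPM. So was the chaperone Hsp90aa1 (1798 ± 750.0 against 889 ± 156 CPM), while the nuclear exporter Xpo1 was lower (164 ± 2.73 against 250.4 ± 2.41 CPM). The list named interferon gamma signalling, of genes set upstream of Ido1, gave 2 higher and 3 lower of 11 tested (median 0.19), among them Socs3 (110 ± 5.50 against 35.5 ± 4.97 CPM), Irf8 (201.01 ± 23.8 against 472 ± 52.7 CPM) and Jak2 (670.4 ± 19.99 against 470.2 ± 23.7 CPM). Irf8 and Batf3 of this list are also on the cDC1 marker list, so the 2 lists overlap in every comparison.

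Within the colon, CD11b+ cells were next compared with CD11c+ cells. Again Kmo and Haao differed most clearly. Kmo was at 11.6 and 13.9 CPM in CD11b+ cells against 60.2 and 62.1 CPM in CD11c+ cells, 4.79 times lower (log2 fold change -2.26, SE 0.16, adjusted p = 3.3e-04). Haao was at 5.23 and 7.02 CPM against 23.7 and 25.1 CPM, 3.95 times lower (log2 fold change -1.98, SE 0.21, adjusted p = 0.0010). Ahr was 1.56 times lower, at 214 and 223 CPM against 324 and 359 CPM (log2 fold change -0.64, SE 0.09, adjusted p = 0.0026). These 3 calls held in all fits that left out a library and under all other settings. Ido1 was also lower, at 1.00 and 0.685 CPM against 3.11 and 3.92 CPM (log2 fold change -2.07, SE 0.44, adjusted p = 0.0096). That call ended without CD11b+ library 2 (adjusted p = 0.0703).

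The other 5 members tested gave no call in this comparison. Kynu was at 10.2 and 15.2 CPM against 15.5 and 22.1 CPM (log2 fold change -0.55, 95% interval -1.13 to 0.03, adjusted p = 0.098), and it was called lower without CD11c+ library 1 (adjusted p = 0.0355) and with no count filter (adjusted p = 0.0499). Afmid was at 9.997 and 8.68 CPM against 11.9 and 12.0 CPM, and Ahrr at 3.31 and 4.34 CPM against 3.49 and 3.20 CPM (log2 fold change 0.20, 95% interval -0.37 to 0.77). Qprt and Ido2 stayed under 1.14 CPM and overlapped between the groups. Cyp1b1, with 6 counts against 2, was not tested, and its ratio of 4.22 had an interval of 0.755 to 42.8.

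Of the 9 members tested, 0 were higher and 4 lower in CD11b+ cells by edgeR, also with 0 higher at an unadjusted p under 0.05 and 0 higher with DESeq2, where 52.0% of 14225 genes were called, 27.0% higher and 25.0% lower. A share of 4 in 9 is near that background. Markers of several cell types were lower along with these members in CD11b+ cells: all 11 cDC1 markers, all 6 conventional dendritic cell markers, all 8 T cell markers, 6 of 7 tested NK and innate lymphoid cell markers and 5 of 6 plasma cell markers. T cell markers summed to 31.9 and 28.03 TPM against 707 and 229.9 TPM, NK and innate lymphoid cell markers to 39.6 and 34.3 against 736 and 253 TPM, and plasma cell markers to 12390.2 and 9720.2 against 21782 and 27517 TPM. All 12 macrophage markers were higher. The part of any of these lists in the differences was not tested. Neutrophil markers (9 genes) were at 1293 and 1117 TPM in CD11b+ libraries against 1.68 and 3.90 TPM in CD11c+ libraries, where S100a8, Camp and Mmp8 had no count.

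The lists around the pathway split in this comparison, where 27.0% of all genes tested were called higher and 25.0% lower. Epithelial markers were higher in CD11b+ cells for 7 of 10 genes, and their part in the list values was not tested. AHR targets gave 4 higher of 6 tested and 0 lower at an adjusted p under 0.05 (median 1.26 against -0.02 over all genes), with Nfe2l2 at 565 ± 42.3 against 199 ± 63.9 CPM, Tiparp at 167 ± 19.1 against 104 ± 12.1 CPM and Nqo1 at 7.62 ± 0.202 against 0.953 ± 0.153 CPM. Ahr itself was lower in the same libraries. Of 11 interferon gamma signalling genes, 4 were higher and 6 lower: the receptor chain Ifngr1 was at 418 ± 23.3 against 1170.0 ± 222 CPM, the transcription factor Irf1 at 199.7 ± 5.08 against 107 ± 3.54 CPM and Socs3, an inhibitor of cytokine signalling, at 235 ± 19.4 against 56.1 ± 14.5 CPM. Other kynurenine and NAD genes gave 3 higher and 4 lower of 16, with Got2 at 48.7 ± 0.718 against 142 ± 13.3 CPM, Nampt at 148 ± 9.14 against 97.6 ± 13.9 CPM and Nmrk1, a nicotinamide riboside kinase, at 6.05 ± 1.12 against 15.2 ± 9.15 CPM. Of 11 tryptophan supply genes, 4 were higher and 1 lower, with the amino acid transporter Slc7a5 lower at 41.8 ± 0.643 against 96.8 ± 6.82 CPM, and Maoa, a monoamine oxidase, and Slc7a8, another amino acid transporter, higher (51.7 ± 8.53 against 20.2 ± 1.76 and 70.3 ± 9.28 against 12.5 ± 7.92 CPM). Of 10 partners and chaperones, 3 were lower and 7 gave no call, with Hsp90ab1 at 1670 ± 20.1 against 2292 ± 17.9 CPM, Xpo1 at 118 ± 7.30 against 186 ± 3.11 CPM and Arnt2, a relative of Arnt, at 0.154 ± 0.218 against 1.13 ± 0.657 CPM. Arnt2 was scarcely detected in CD11b+ cells, where its SD exceeded its mean.

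The third comparison set CD11b+CD11c+ against CD11c+ cells, so it shares its CD11c+ libraries with the one before. Ahrr and Afmid were higher and Ido1, Haao, Kmo and Ahr lower in CD11b+CD11c+ cells. Ahrr was at 5.90 and 6.92 CPM against 3.49 and 3.20 CPM, 1.91 times higher (log2 fold change 0.93, SE 0.23, adjusted p = 0.020), while Ahr was at 277 and 267 CPM against 324 and 359 CPM, 1.25 times lower (log2 fold change -0.33, SE 0.09, adjusted p = 0.031). Afmid was at 20.5 and 16.6 CPM against 11.9 and 12.0 CPM (log2 fold change 0.64, SE 0.16, adjusted p = 0.020). Haao was at 15.7 and 11.4 CPM against 23.7 and 25.1 CPM (log2 fold change -0.84, SE 0.20, adjusted p = 0.018). Ido1 was at 1.36 and 0.622 CPM against 3.11 and 3.92 CPM (log2 fold change -1.80, SE 0.43, adjusted p = 0.018). Kmo was at 50.1 and 39.5 CPM against 60.2 and 62.1 CPM and passed narrowly (log2 fold change -0.45, SE 0.15, adjusted p = 0.048).

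Each of these 6 calls ended when some library was left out, while no direction changed. Without CD11c+ library 1 the calls of Afmid (adjusted p = 0.0656), Kmo (0.0900) and Ahrr (0.0568) ended. Without CD11c+ library 2 those of Ido1 (adjusted p = 0.0559), Afmid (0.0525), Kmo (0.0976), Ahr (0.0857) and Ahrr (0.0617) ended. Without CD11b+CD11c+ library 1 those of Afmid (adjusted p = 0.0983) and Ahr (0.0792) ended, and without CD11b+CD11c+ library 2 those of Ido1 (adjusted p = 0.0867), Kmo (0.306), Haao (0.115), Ahr (0.206) and Ahrr (0.0949). Other settings ended the calls of Kmo (adjusted p = 0.0465 to 0.111 over 8 settings, above the threshold in 7 of them), Ahr (0.0213 to 0.203, above it in 3, RLE size factors among them), Afmid (0.0036 to 0.0738, above it in 3) and Haao (0.0052 to 0.0659, above it in 3), and not those of Ido1 and Ahrr. Kynu (25.0 and 26.4 CPM against 15.5 and 22.1 CPM, adjusted p = 0.16), Ido2 and Qprt gave no call. Of 9 members tested, 2 were higher and 4 lower, where 43.0% of 14225 genes were called, 20.4% higher and 22.5% lower. The share of 6 in 9 is above that background, on few genes and without a test of the list. Cyp1b1 was not tested, with 7 counts against 2 and a ratio of 5.45 (interval 1.04 to 53.7).

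All 12 macrophage markers were higher in CD11b+CD11c+ than in CD11c+ cells. Lower were 10 of 11 cDC1 markers, 4 of 6 conventional dendritic cell markers (2 gave no call), all 8 T cell markers (summed to 54.7 and 27.7 against 707 and 229.9 TPM), 6 of 7 tested NK and innate lymphoid cell markers (103 and 45.9 against 736 and 253 TPM) and 5 of 6 plasma cell markers (9126 and 7234 against 21782 and 27517 TPM). Of the mature dendritic cell markers, 6 of 11 were higher and 1 lower, with summed levels of 865 and 792 TPM against 195 and 246 TPM. Their part in the member values was not tested. Over all genes tested, 20.4% were called higher and 22.5% lower. AHR targets gave 3 higher of 6 tested and 3 without a call (median 0.73 against -0.09), with Nfe2l2 at 635 ± 88.8 against 199 ± 63.9 CPM, Tiparp at 199 ± 23.9 against 104 ± 12.1 CPM and Nqo1 at 1.83 ± 0.386 against 0.953 ± 0.153 CPM. Tryptophan supply genes gave 6 higher and 1 lower of 11, with Slc3a2 at 1022 ± 103 against 717 ± 45.3 CPM and Il4i1 at 68.6 ± 7.85 against 15.7 ± 3.77 CPM. Il4i1 is also on the mature dendritic cell list, so it enters the counts of both lists. Interferon gamma signalling genes gave 4 higher and 4 lower of 11, other kynurenine and NAD genes 3 and 3 of 16, and partners and chaperones 1 and 1 of 10.

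The fourth comparison set CD11b+CD11c+ against CD11b+ cells and shares libraries with both before it. Kmo, Haao and Afmid were higher in CD11b+CD11c+ cells. Kmo was at 50.1 and 39.5 CPM against 11.6 and 13.9 CPM, 3.51 times higher (log2 fold change 1.81, SE 0.15, adjusted p = 0.0024), and its call held with each library left out in turn and under all other settings. Afmid was at 20.5 and 16.6 CPM against 9.997 and 8.68 CPM (log2 fold change 1.00, SE 0.16, adjusted p = 0.015). Haao was at 15.7 and 11.4 CPM against 5.23 and 7.02 CPM (log2 fold change 1.14, SE 0.21, adjusted p = 0.025). Calls of Afmid and Haao ended without CD11b+CD11c+ library 1 (adjusted p = 0.0877 and 0.122), without CD11b+ library 1 (0.0928 and 0.167) and without CD11b+ library 2 (0.0848 and 0.0595). Both also ended with limma on log2(TPM + 0.5) (0.0601 and 0.185), and that of Haao with the effective length offset (0.160).

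Kynu missed the threshold, at 25.0 and 26.4 CPM against 10.2 and 15.2 CPM (log2 fold change 1.01, 95% interval 0.42 to 1.59, adjusted p = 0.054), and it passed under 5 of 8 other settings, DESeq2 among them (adjusted p = 0.0041 to 0.0775 over the 8). Ahr was at 277 and 267 CPM against 214 and 223 CPM (log2 fold change 0.32, 95% interval 0.09 to 0.54, adjusted p = 0.090, and 0.0106 with DESeq2), and Ahrr at 5.90 and 6.92 CPM against 3.31 and 4.34 CPM (log2 fold change 0.73, 95% interval 0.17 to 1.30, adjusted p = 0.11). Neither overlapped between the groups. Ido1, Ido2 and Qprt overlapped and gave adjusted p = 0.78, 0.94 and 0.87, and Cyp1b1, with 7 counts against 6, was not tested. Of 9 members tested, 3 were higher and 0 lower by edgeR, also with 0 lower at an unadjusted p under 0.05 and 0 lower with DESeq2, where 9.63% of 14225 genes were called, 3.79% higher and 5.84% lower. The share of 3 in 9 is above that background, again on few genes and without a test of the list. Of the calls over all genes 39.3% were higher, a share of 27.2 to 60.5% under other settings and of 17.3% without CD11b+ library 1.

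In this comparison 8 of 11 cDC1 markers, 5 of 6 conventional dendritic cell markers and 4 of 11 mature dendritic cell markers were higher in CD11b+CD11c+ cells. None of these lists had a lower gene, while 0 of 12 macrophage markers were called by edgeR. Lower were 5 of 8 tested neutrophil, 6 of 8 stromal and endothelial and 4 of 6 tested eosinophil markers, with 0, 0 and 1 higher. Neutrophil markers summed to 104 and 121 against 1293 and 1117 TPM. Stromal and endothelial markers summed to 149 and 125 against 737 and 648 TPM. The part of any of these lists in the member values was not tested. Over all genes tested, 3.79% were called higher and 5.84% lower. Of the lists around the pathway, AHR targets gave 1 lower of 6, Nqo1 (1.83 ± 0.386 against 7.62 ± 0.202 CPM), and Tiparp and Nfe2l2 gave no call. Tryptophan supply genes gave 1 higher of 11, Il4i1 (68.6 ± 7.85 against 23.5 ± 4.87 CPM), which is also on the mature dendritic cell list. Interferon gamma signalling genes gave 2 higher of 11, Jak2 (783 ± 128 against 304 ± 5.86 CPM) and Batf3 (24.3 ± 0.360 against 12.95 ± 0.262 CPM), the latter a factor of cDC1 development that is also on the cDC1 marker list. Other kynurenine and NAD genes gave Got2 higher and Nnmt, a nicotinamide methyltransferase, lower (71.1 ± 6.01 against 48.7 ± 0.718 and 1.17 ± 0.553 against 6.58 ± 0.387 CPM), and of the partners and chaperones only Hsp90ab1 was called, higher at 2308 ± 105 against 1670 ± 20.1 CPM.

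**Figure D5:**
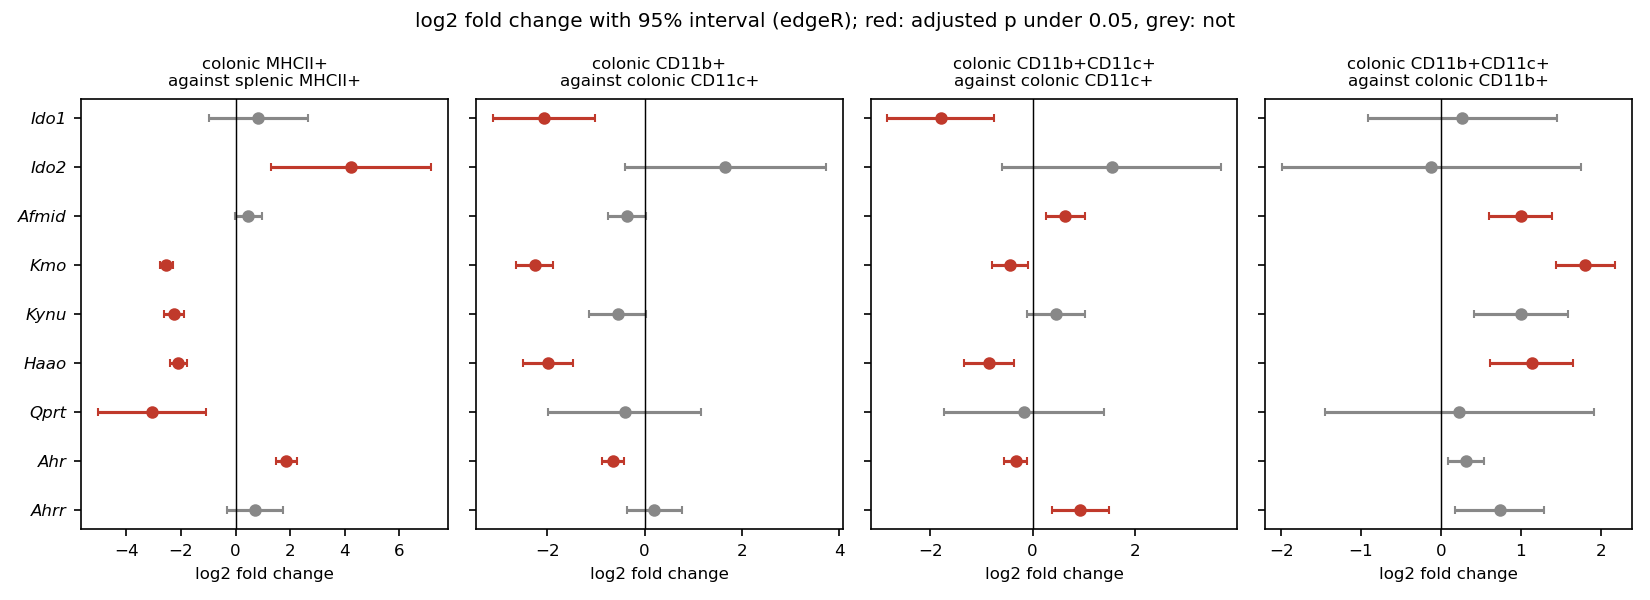
log2 fold change (horizontal) of the 9 members tested in the 4 comparisons, with 95% intervals from edgeR; red marks an adjusted p under 0.05. Kmo and Haao lie left of 0 in the first 3 panels and right of 0 in the last, and the intervals of Ido2 and Qprt are the widest.

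The genes most like each member above 5 TPM were taken by Pearson's r of log2(TPM + 1) over the 10 libraries, among 10328 genes with at least 5 TPM in 2 libraries. These points are 5 groups of 2, so r mainly follows group means and is given as a description. Ahr was most like Arih2, a ubiquitin ligase (r = 0.992), Rgs9, a regulator of G protein signalling (0.992), and Timd4, a receptor for phosphatidylserine on dying cells (0.987). Kmo was most like the kinesin Kif21b (r = 0.991), H2-Oa, a chain of the class II peptide editor H2-O (0.987), and the repressor Bcl6 (0.984). Among members, Kmo had r = 0.971 with Haao, 0.901 with Kynu and -0.65 with Ahr.

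Haao was most like Setd7 (r = 0.987), a lysine methyltransferase, Tsnax (0.987) and the forkhead gene Foxk2 (0.983). Kynu was most like Acbd5 (r = 0.973), Rfx5, a subunit of the complex that binds MHC class II promoters (0.972), and the transcription factor gene Nfatc2 (0.971). Afmid was most like Iqgap2 (r = 0.929), the kinase gene Map4k4 (0.907) and Vav3 (0.903), and its r with Kmo and Haao was -0.07 and -0.25.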

How the data were processed

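RNA was taken with TRIzol and polyadenylated RNA was made into directional NEBNext libraries, per the labels' protocols. Reads were processed with kallisto 0.44.0, with sleuth and mm10 also named, per the submitters' processing notes; the index release and the options are not known here. The authors deposited an estimated count and a TPM value per transcript, made by kallisto, per the file headers. A further column gave lengths in bases. Of the lengths, 88.95% were multiples of 3, so they are coding lengths and reads from untranslated regions did not count. Of 66760 transcripts, 65747 matched GENCODE M21; the rest held 0.532 to 0.912% of counts.

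Counts were summed per gene, rounded and tested with edgeR 4.0.16 (R 4.3.3): filterByExpr, TMM, quasi-likelihood F test, group as the only term, Benjamini-Hochberg over all genes tested, threshold 0.05. The 4 MHCII+ and 6 integrin-sorted libraries were fitted separately. Alternatives used DESeq2 1.42.0 and limma 3.58.1. The code was tested on simulated data. Replicates correlated at r = 0.981 to 0.994 over genes, with a chi-square of 11.2 to 40.05 per gene, so none appeared deposited again. The splenic titles share a replicate number; their libraries were numbered by accession. From each pathway list, the called genes with the highest mean TPM (up to 3 per comparison) were eligible for naming, and not all are named; others are marked as chosen after their values were seen. Members, lists and tests were chosen with earlier results of these data known.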

Additional observations from a re-analysis of the deposited data

How the results depend on the processing

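With 2 libraries a group and low counts of Ido1, Ido2, Qprt and Cyp1b1, depth limits what can be said of those genes. Of 422 refits of a member, 349 kept direction and call, 48 lost a call, 11 gained one and 14 changed sign, all 14 of uncalled members; the causes were not tested. Calls of members in the comparison of CD11b+CD11c+ against CD11c+ (6) numbered 3 when effective lengths entered as an offset, and 3 with either limma setting, log2(TPM + 0.5) or log2(TPM + 0.1), and 1 to 4 with a library left out. In CD11b+CD11c+ against CD11b+ (3) they numbered 5 with DESeq2, 5 with no count filter, 1 with either limma setting and 1 to 3 with a library left out. With a library left out, colonic against splenic (6) gave 4 to 6 and CD11b+ against CD11c+ (4) gave 3 to 5. Over all genes, the 1370 calls of CD11b+CD11c+ against CD11b+ became 831 with the length offset, 834 and 743 with limma and 226 to 771 with a library left out. Leaving out a library gave 3190 to 5700 for the 6110 of CD11b+CD11c+ against CD11c+ and 4372 to 6894 for the 7392 of CD11b+ against CD11c+. Of the 1370 calls 39.3% were higher, against 50.02% with DESeq2, 55.8% with no count filter, 60.5% in a fit over all 10 libraries and 27.2% with limma on log2(TPM + 0.5).

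Among uncalled members, between CD11b+CD11c+ and CD11b+ Ido1 changed sign with limma (-0.030 and -0.074 with pseudocounts of 0.5 and 0.1) and Ido2 with limma at 0.1 (0.014), and against CD11c+ Qprt with limma at 0.1 (0.036). With a library left out, Ido1 ran from -0.15 to 1.34 in colonic against splenic and from -0.41 to 0.79 in CD11b+CD11c+ against CD11b+, where Ido2 ran from -0.64 to 1.01. In CD11b+ against CD11c+ Ahrr ran from -0.053 to 0.37. Qprt ran from -0.94 to 0.69 in CD11b+ against CD11c+, -0.71 to 0.92 in CD11b+CD11c+ against CD11c+ and -0.23 to 0.66 in CD11b+CD11c+ against CD11b+.

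Whether the replicate numbers of the integrin-sorted titles mark a pairing was not settled. Deviations of same-numbered libraries correlated over genes at 0.33 between CD11c+ and CD11b+CD11c+, so these shared a part of their deviation. The correlation was -0.05 between CD11c+ and CD11b+ and 0.0045 between CD11b+CD11c+ and CD11b+. The main fits had no term for the replicate number. With the replicate number as a block, 5, 5 and 4 members were called in CD11b+ against CD11c+, CD11b+CD11c+ against CD11c+ and CD11b+CD11c+ against CD11b+ (7316, 6075 and 1427 genes), and Ido2 in the last was at 0.038. The block brought a call of Kynu, lower in CD11b+ against CD11c+ (log2 fold change -0.56, adjusted p = 0.0301) and higher in CD11b+CD11c+ against CD11b+ (1.04, adjusted p = 0.0181), and ended that of Kmo in CD11b+CD11c+ against CD11c+ (adjusted p = 0.0636). No paired analysis was possible for colonic against splenic cells because both splenic titles carry the same number. The lone library of a group left with 1 was assumed to vary like the others.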

Other observations

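Il4i1, described above only comparison by comparison and chosen here after its values were seen, encodes an oxidase whose indole products of tryptophan are also known ligands of AHR. In the MHCII+ set Il4i1 was at 124 ± 4.64 CPM in the spleen and 56.2 ± 5.27 CPM in the colon (SD, n = 2), where Ido1 was at 0.4395 ± 0.109 and 0.771 ± 0.512 CPM. In the integrin-sorted set it was at 68.6 ± 7.85 CPM in CD11b+CD11c+ cells, 23.5 ± 4.87 CPM in CD11b+ cells and 15.7 ± 3.77 CPM in CD11c+ cells, where Ido1 was at 0.989 ± 0.519, 0.843 ± 0.222 and 3.52 ± 0.575 CPM. These values are not per length, so the levels of the 2 genes are not compared. Il4i1 is on the mature dendritic cell list, whose summed level was 865 and 792 TPM in CD11b+CD11c+ libraries and 195 and 246 TPM in CD11c+ libraries. In the MHCII+ set that list went the other way from Il4i1, at 565 and 467 TPM in the colon and 298 and 270 TPM in the spleen. Its genes were mixed there, with 4 higher and 5 lower in the colon. The part of those cells in the level of Il4i1 was not tested.

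Maoa and Ddc, on the list of tryptophan supply and competing routes, differed widely in the MHCII+ comparison, while Il4i1 on the same list went the other way. Maoa was at 198 ± 1.25 against 0.941 ± 0.0363 CPM and Ddc, the aromatic amino acid decarboxylase, at 27.1 ± 1.50 against 0.260 ± 0.102 CPM in colonic against splenic cells, beside summed epithelial markers of 3274 and 3202 against 15.9 and 20.2 TPM. The part of epithelial cells in these levels was not tested, and both genes were chosen after their values were seen.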
